A study of Homo sapiens with 16 samples.

Results

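Nascent transcription of the genes that make, degrade and regulate polyamines was examined in LNCaP cells, an established human prostate cancer line. The 10 genes were taken by name: the synthesis genes ODC1, AMD1, SRM and SMS, the breakdown genes SAT1, PAOX and SMOX, and the regulators OAZ1, OAZ2 and AZIN1. They are 10 of the 60605 gene identifiers in the deposited tables, and all 10 passed the filter on low counts in every comparison. The assay was PRO-seq, in which engaged RNA polymerases in permeable cells extend their transcripts with labelled nucleotides, so that a count stands for polymerases on a gene and not for stored mRNA. The study asked how enzalutamide, an androgen receptor antagonist, and ionizing radiation (IR) alter transcription. In batch 2 the 4 groups were DMSO vehicle for 90 min, vehicle with 6 Gy, 10 µM enzalutamide for 90 min, and enzalutamide with 6 Gy, and the dose was given at 30 min and followed by 60 min of incubation. In batch 1 the groups were mock and 6 Gy. Their own labels do not say whether the mock cells received DMSO, and give no time between the dose and harvest. Each of the 6 groups had 2 replicates, each batch 1 replicate being the sum of a t1 and a t2 library. All groups grew in medium with serum, and no added androgen is named.

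Polyamines are small cations, putrescine, spermidine and spermine, that bind nucleic acids and are needed for growth. ODC1 makes putrescine from ornithine, AMD1 makes the decarboxylated S-adenosylmethionine that donates aminopropyl groups, and SRM and SMS use it to build spermidine and then spermine. SAT1 acetylates spermidine and spermine for export or for oxidation by PAOX, SMOX oxidizes spermine directly, the antizymes OAZ1 and OAZ2 send ODC1 protein to degradation, and AZIN1 binds antizymes and so spares ODC1. The prostate is known for a high output of polyamines, and ODC1 is a known target of MYC. Antizyme levels are set largely in translation and ODC1 and SAT1 are strongly regulated after transcription, which PRO-seq does not measure.

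The results below turn mostly on ODC1 and AMD1, which start the 2 branches of synthesis, and on SAT1, which starts breakdown. Their upstream sequences are shown as the DNA before an annotated start of each gene. Whether the counted polymerases start there was not tested. Each sequence runs 5′ to 3′ on the gene's strand over the 250 bases before a RefSeq start on GRCh38.p14. For AMD1 that start lies inside the RefSeq span of the gene. Capitals mark matches to TATAA and GGGCGG on either strand, the core letters of the TATA element and of the GC box, which binds Sp1-family factors. They lie at chr2:10448328-10448577 (ODC1, minus strand), chr6:110874535-110874784 (AMD1, plus strand) and chrX:23782923-23783172 (SAT1, plus strand).
ODC1: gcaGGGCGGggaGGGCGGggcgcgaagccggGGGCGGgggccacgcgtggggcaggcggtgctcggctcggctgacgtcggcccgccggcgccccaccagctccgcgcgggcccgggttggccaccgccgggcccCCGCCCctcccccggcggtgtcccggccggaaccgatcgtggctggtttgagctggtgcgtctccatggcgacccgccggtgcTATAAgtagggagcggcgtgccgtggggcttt
AMD1: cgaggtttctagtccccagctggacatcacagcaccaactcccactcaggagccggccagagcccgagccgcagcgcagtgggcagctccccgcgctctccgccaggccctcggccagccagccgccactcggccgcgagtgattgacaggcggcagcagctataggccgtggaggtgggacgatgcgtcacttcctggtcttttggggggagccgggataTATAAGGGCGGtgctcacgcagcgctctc
SAT1: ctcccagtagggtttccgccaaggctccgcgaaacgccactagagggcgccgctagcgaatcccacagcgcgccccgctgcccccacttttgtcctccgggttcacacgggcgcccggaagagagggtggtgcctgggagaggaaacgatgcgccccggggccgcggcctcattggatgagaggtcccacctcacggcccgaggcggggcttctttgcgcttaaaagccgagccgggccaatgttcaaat
TATAA began 32 bases before the ODC1 start and 29 before the AMD1 start, and in AMD1 it ran straight into a GGGCGG at 24 bases before the start. ODC1 held 4 GGGCGG matches and SAT1 held neither motif. GC content was 78.8% in ODC1, 67.2% in AMD1 and 66.4% in SAT1, against a median of 58% over all promoters in the table. Sequences were found for 7 of the 10 genes (ODC1, AMD1, SRM, SMS, SAT1, OAZ1 and OAZ2). On both strands of the same windows, TATAA was present in 2 of the 7 and in 18.9% of 35116 promoters, GGGCGG in 6 of 7 and 42.6%, the E-box CACGTG, which MYC can bind, in 1 of 7 (SRM, 199 bases before its start) and 6.34%, and the androgen receptor hexamer AGAACA in 0 of 7 and 12.4%. A match is a run of letters and not a measured binding site.

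Batch 1 libraries were between 3438642 and 9363458 counts deep and batch 2 libraries between 10494563 and 19905824, and the 10 genes held 0.0788% to 0.1095% of a library. The lowest count of any of these genes in a sample was 118 (SAT1, enzalutamide replicate 4) and the highest was 11496 (AMD1, vehicle replicate 4). The mitochondrial share was 2.86% to 5.38% in batch 1 libraries, above the 0.570% to 0.934% of batch 2. The summed level of 9 luminal prostate markers was 2570 to 3480 CPM (counts relative to the library size, scaled by TMM factors) in all 12 samples. It was 0.729 to 1.74 for leukocyte, 4.37 to 9 for basal, 8.11 to 12.7 for fibroblast and 4.98 to 17.1 CPM for neuroendocrine markers. KLK3, among the 9 luminal markers, had group means of 180 and 144 CPM in batch 1 and of 7.25 to 15.3 CPM in batch 2, scaled within batch. CDKN1A, the p53 target that codes for p21, rose after IR by 3.32 on the log2 scale over both batches (SE 0.115, adjusted p = 2.722e-13). MDM2 rose by 2.59 in the same test (SE 0.1465, adjusted p = 3.028e-10). The androgen receptor target TMPRSS2 fell by 0.58 with enzalutamide averaged over IR (SE 0.0622, adjusted p = 0.001234). KLK3, the other androgen receptor target chosen, changed by -0.66 there and did not pass (SE 0.212, adjusted p = 0.69). Over both batches IR changed TMPRSS2 by -0.30 (adjusted p = 0.02262) and KLK3 by -0.41 (adjusted p = 0.01151). All adjusted p-values are from edgeR's quasi-likelihood test with Benjamini-Hochberg adjustment over all genes tested, with 0.05 as the threshold.

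Per kilobase of gene span, which is the only scale on which genes are compared with each other here, OAZ1 had the highest level in vehicle cells, 17.4 ± 1.42 CPM per kb (SD, n = 2), at the 97.4th percentile of 21682 genes. ODC1 followed with 9.01 ± 2.4, then AMD1 with 7.52 ± 0.315, SRM with 6.46 ± 0.555 and SAT1 with 4.89 ± 0.0513 CPM per kb. The replicates of ODC1 and AMD1 overlapped, so the order of that pair is not settled. AZIN1 (2.995 ± 0.165) and OAZ2 (2.31 ± 0.207 CPM per kb) came next, SMS (1.26 ± 0.0186) and PAOX (1.21 ± 0.0897) overlapped, and SMOX was lowest at 0.296 ± 0.0136 CPM per kb, the 33.2nd percentile. The place of AMD1 depends on the span used. RefSeq spans 81.1 kb for AMD1, from chr6:110814617 to chr6:110895713, and the start whose upstream sequence is shown lies inside it. The same count for the whole gene divided by the 20.9 kb from that start is 29.1 CPM per kb in vehicle cells, above OAZ1, and still includes any reads before that start.

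Enzalutamide did not move any of the 10 genes past the threshold in the main fit, which did not pair replicates, and AMD1 came nearest. AMD1 stood at 628 and 592 CPM in vehicle cells against 551 and 451 CPM with the drug, and at 572 and 526 CPM with IR and vehicle against 457 and 464 CPM with IR and the drug. It was lower with the drug in 4 of 4 pairs of same-numbered replicates, at 0.761 to 0.881 of the paired level, and the groups did not overlap with or without IR. Neither for the drug nor for IR was the share of all genes counted whose pairs all went the same way. The share whose groups did not overlap was not counted either. Averaged over IR, AMD1 was at 0.830 of its level without the drug (95% interval 0.750 to 0.919, log2 change -0.27, SE 0.0682), with an adjusted p of 0.4023. With the replicate number as a block, the estimate was the same and the SE smaller, so that AMD1 passed (log2 -0.27, SE 0.0514, adjusted p = 0.006772). The fit without a filter on low counts also called it (log2 -0.27, adjusted p = 0.00118), and DESeq2 gave an adjusted p of 0.05178. Of 28651 genes tested for the averaged effect, 18 (0.0628%) were called, all lower, and 0 of the 10 were among them, with 2 of the 10 and 1780 of all genes at an unadjusted p under 0.05. DESeq2 also called 0 of the 10 and 58 of all genes.

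SMS, the spermine synthase, was the other gene with a small unadjusted p. It stood at 67.3 and 68.8 CPM in vehicle cells and at 62.9 and 57.9 CPM with enzalutamide, and with IR at 72.1 and 68.8 CPM against 63.1 and 62.1 CPM with the drug. The drug groups lay below in both settings, and all 4 pairs were lower, at 0.841 to 0.934. The averaged log2 change was -0.17 (SE 0.0552, adjusted p = 0.6933, and 0.1104 with the block). ODC1 was at 89.5 and 61.1 CPM in vehicle cells and at 85.3 and 50.9 CPM with enzalutamide. Replicates 3 and 4 of ODC1 thus lay farther apart than the groups, and the averaged change was -0.10 (SE 0.148, adjusted p = 0.9413). The remaining 7 genes had averaged log2 changes between -0.09 for SRM and 0.09 for SMOX. Among them, SMOX and OAZ2 were higher with the drug in 4 of 4 pairs, at up to 1.12 and 1.1 of the paired level. The 95% interval of all 10 lay within a 1.5-fold change in either direction, as it did for 68.7% of all genes tested, and the median log2 change was -0.0807 for the 10 and 0.000738 for all genes. That median of the 10 rested on single replicates: it was -0.162 without enzalutamide replicate 3 and 0.00438 without enzalutamide replicate 4. Tested separately, the drug called 3 of 28651 genes without IR (0.0105%) and 3 with IR (0.0105%), with none of the 10 in either, and 1 of the 10, AMD1, had an unadjusted p under 0.05 in each. For the drug without IR, the median of the 10 moved to -0.255 without enzalutamide replicate 3 and to 0.0167 without enzalutamide replicate 4. Each of these refits rests on a single unirradiated enzalutamide sample.

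**Figure D1:**
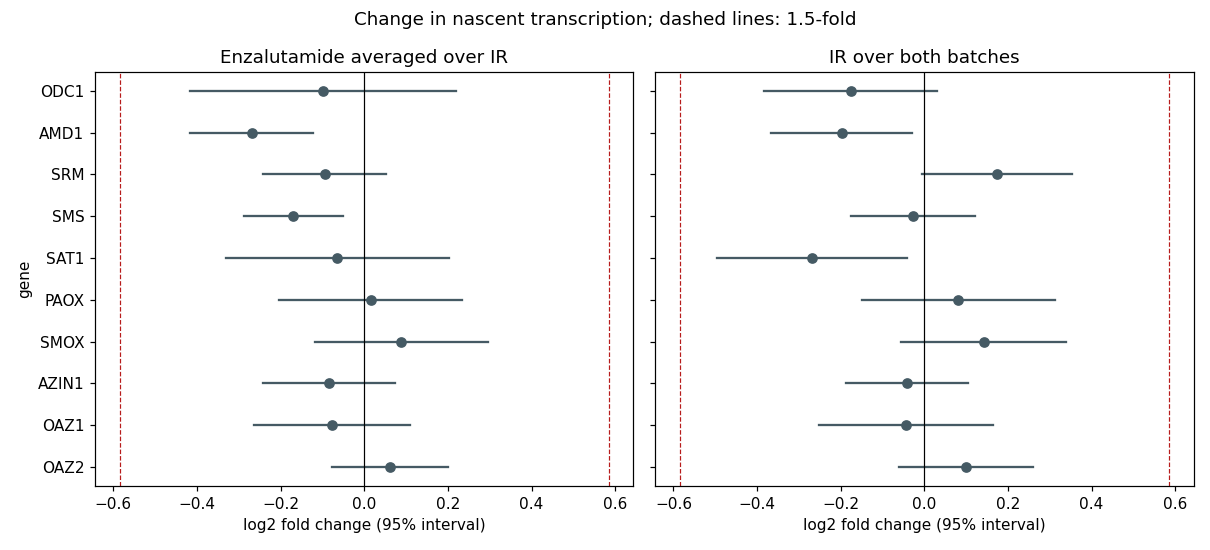
Log2 fold change (x axis) with its 95% interval for each polyamine gene (y axis), for enzalutamide averaged over IR in batch 2 and for IR over both batches. Points are edgeR estimates, bars the intervals and dashed lines a 1.5-fold change. Every bar stays inside the dashed lines, and the AMD1 bar lies below 0 in both comparisons.

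Radiation likewise moved none of the 10 past the threshold over both batches in the main fit without pairing, where 1182 of 29195 genes (4.05%) were called. Among synthesis genes, AMD1 was at 490 and 511 CPM in mock cells and at 452 and 406 CPM after IR in batch 1, and was at 628 and 592 CPM in vehicle cells against 572 and 526 CPM with IR in batch 2; these groups did not overlap. The combined change was -0.20 (SE 0.0801, adjusted p = 0.2171), and with the replicate block it passed (-0.20, SE 0.0511, adjusted p = 0.02671). ODC1 was at 97.1 and 110 CPM in mock and at 93.7 and 83.7 CPM in irradiated cells of batch 1, groups that did not overlap, while in batch 2 they did. Its combined change was -0.18 (SE 0.0989, adjusted p = 0.401), and it ran from -0.29 without vehicle replicate 4 to -0.04 without vehicle replicate 3. MYC changed by -0.33 in the same test (SE 0.0751, adjusted p = 0.01098). SRM went the other way in vehicle cells of batch 2, from 32.9 and 37.2 CPM to 41.4 and 43.6 CPM, without overlap (log2 0.28, SE 0.104, adjusted p = 0.3486), and combined it was 0.17 (SE 0.0858, adjusted p = 0.3331). SMS had a combined change of -0.03, which turned to 0.00246 with RLE scaling.

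Of the breakdown genes, SAT1 had the largest combined estimate. SAT1 stood at 40.9 and 31.4 CPM in mock and at 32.8 and 25.8 CPM in irradiated cells of batch 1, and at 14.8 and 15.0 CPM in vehicle and 11.5 and 14.5 CPM in irradiated cells of batch 2. The batch 1 groups overlapped. The batch 2 groups did not, though their nearest values, 14.5 and 14.8 CPM, were close together. Its combined change was -0.27 (SE 0.109, adjusted p = 0.2155, and 0.06101 with the block). In batch 1 alone, where 2.82% of 25889 genes and none of the 10 were called, the SAT1 change was -0.31 (SE 0.151, adjusted p = 0.4944). That call depended on the fit and on 1 replicate: the adjusted p was 0.0302 with the block and 0.0229 without mock replicate 2 (log2 -0.49). SMOX was higher after IR in 6 of 6 pairs, at 1.03 to 1.23 of the paired level, with a combined change of 0.14, and PAOX had 0.08; neither passed. Among regulators, combined log2 changes were -0.04 for OAZ1 and for AZIN1 and 0.10 for OAZ2. Like SMOX, OAZ2 was higher after IR in 6 of 6 pairs, at up to 1.17 of the paired level. All 10 intervals lay within 1.5-fold, as for 61.0% of all genes, and the median change was -0.0346 for the 10 and -0.0245 for all genes. At an unadjusted p under 0.05 stood 2 of the 10, AMD1 and SAT1, and 4714 of all genes, and DESeq2 called 0 of the 10.

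The IR comparisons within batch 2 also called none of the 10, against 1.1% of all genes with vehicle and 0.918% with enzalutamide. The IR effect under enzalutamide was read against the effect under vehicle by an interaction term, which called 0 of 28651 genes (0%, with 343 at an unadjusted p under 0.05). Interaction estimates for the 10 were between -0.0518 and 0.18 on the log2 scale, and 7 of the 10 had intervals within 1.5-fold. Single enzalutamide replicates moved them: ODC1 ran from -0.25 without replicate 4 to 0.49 without replicate 3, SAT1 from -0.16 to 0.42 and OAZ1 from -0.12 to 0.27. The difference in IR response between batches called 31 genes (0.106%) and none of the 10, with estimates from -0.225 to 0.000955. As the labels give no time after the dose for batch 1, the batches may differ in it.

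Within batch 1, the t1 and t2 libraries, which the labels do not explain, gave differences between irradiated and mock cells of opposite sign for 6 of the 10 genes. Nothing in the labels says that t1 and t2 stand for the same thing in mock and in irradiated cells. The mitochondrial share was 4.25% and 5.06% in mock t1 and 5.38% and 4.47% in irradiated t2, against 3.24% and 3.94% in mock t2 and 2.87% and 2.86% in irradiated t1. SMS likewise stood at 56.3 and 57.9 CPM in mock t1 and 55.0 and 54.3 CPM in irradiated t2, against 42.9 and 42.4 CPM in mock t2 and 40.4 and 40.5 CPM in irradiated t1. Mock t1 lay near irradiated t2 in these measures, and mock t2 nearer to irradiated t1. SAT1, OAZ1, SRM and PAOX also separated mock t1 and irradiated t2 from mock t2 and irradiated t1. ODC1, AMD1, SMOX, AZIN1 and OAZ2 did not. An exchange of t1 and t2 between the arms was not tested, and if the names do not match, the differences within t1 or t2 are not IR responses. SAT1 was at 28.0 and 25.2 CPM in mock t1 and at 40.2 and 32.7 CPM in irradiated t1, but at 51.8 and 43.3 CPM in mock t2 and at 23.4 and 21.9 CPM in irradiated t2. The log2 difference, irradiated minus mock, was thus 0.46 in t1 and -1.07 in t2, without overlap of groups in either. OAZ1 changed by 0.66 in t1, from 105 and 73.6 CPM to 160 and 119 CPM, and by -0.95 in t2, from 151 and 157 CPM to 82.6 and 75.3 CPM. SRM (0.54 and -0.47) and PAOX (0.61 and -0.47) had the same order of signs, SMOX had it with smaller values (0.35 and -0.17), and SMS had the reverse (-0.50 and 0.37). AMD1 (-0.43 and -0.03) and ODC1 (-0.37 and -0.07) were negative in both, nearer 0 in t2, and with either set alone in batch 1 the IR change of AMD1 over both batches was -0.32 (t1, adjusted p = 0.292) or -0.09 (t2, adjusted p = 0.634). Differences between t1 and t2 passed the test of the difference itself for 5 of the 10 genes, 4 with a lower and 1 with a higher irradiated minus mock value in t2, with adjusted p-values from 8.907e-05 (SAT1) to 0.006814 (PAOX). The test, added after the SAT1 values were seen, called 43.7% of 23335 genes, so the share for the polyamine genes is near that of all genes. It took the t1 and t2 libraries of a replicate as independent. Of the calls 5089 were higher and 5110 lower, and with scaling by total counts, which moved the median of all genes to -0.245, 3943 were higher and 6375 lower and 6 of the 10 were called.

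The size of these t1 and t2 differences moved with gene span across all genes. In mock cells the median log2 ratio of t2 to t1 was 0.446 for 1424 genes under 5 kb, 0.206 for 3457 genes of 5 to 20 kb and -0.127 for 8656 longer genes. In irradiated cells the order was turned, with -0.59, -0.235 and 0.14. SAT1 and OAZ1 span under 5 kb and SMS over 20 kb, each with the signs of its class. SRM and PAOX, of 5 to 20 kb, and AMD1, over 20 kb, also had the signs of their classes. ODC1, which spans 8.36 kb, went against its class in both arms. Mock cells had 115 and 117 CPM in t1 and 89.45 and 109 CPM in t2. Irradiated cells had 96.3 and 83.0 CPM in t1 and 96.9 and 89.95 CPM in t2. AZIN1 (37.9 kb) was higher and OAZ2 (15.7 kb) lower in mock t2 than in mock t1, also against their classes. Their irradiated replicates differed in sign. SMOX, which spans 38.9 kb, went against its class in irradiated cells, at 25.0 and 26.5 CPM in t1 and 18.1 and 19.5 CPM in t2, and its mock replicates differed in sign. The part of gene span in the values of single genes was not tested. Sums over t1 and t2, used everywhere else, join libraries that differ in this way, and IR values from batch 1 rest on them.

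**Figure D2:**
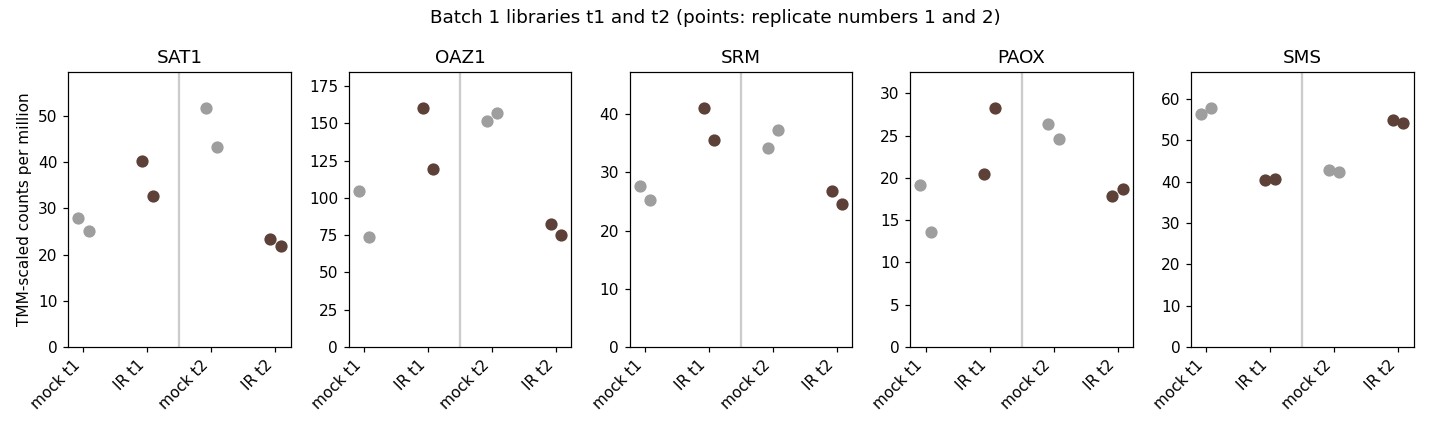
CPM (y axis) of SAT1, OAZ1, SRM, PAOX and SMS in the mock and irradiated t1 and t2 libraries of batch 1 (x axis). Points are the 2 replicates. SAT1, OAZ1, SRM and PAOX are higher in irradiated than in mock t1 and lower in irradiated than in mock t2, and SMS is the reverse. The labels do not say that t1 and t2 match between mock and irradiated cells.

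The level of several genes differed more between batches than between treatments. Set on 1 scale, SAT1 was 2.49-fold higher in mock cells of batch 1 than in vehicle cells of batch 2, SMOX 1.81-fold, OAZ1 1.71-fold, ODC1 1.41-fold and PAOX 1.37-fold. OAZ2 was near even at 1.04-fold. SRM (0.872), AMD1 (0.842), AZIN1 (0.769) and SMS (0.731) were lower in batch 1. Over the 6 group means, each scaled within its batch, the highest was 2.85 times the lowest for SAT1 and 1.12 times for OAZ2. For comparison, median ratios over all genes were 1.76-fold for 1801 genes under 5 kb, 1.16-fold for 4020 genes of 5 to 20 kb and 0.877 for 9969 longer genes, and 83.2%, 64.6% and 36.4% of them were higher in batch 1. SMOX, in the longest class, and SRM, which spans 5.43 kb in the middle class, went against their classes. Batch, replicate set and mock or vehicle handling cannot be told apart here.

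**Figure D3:**
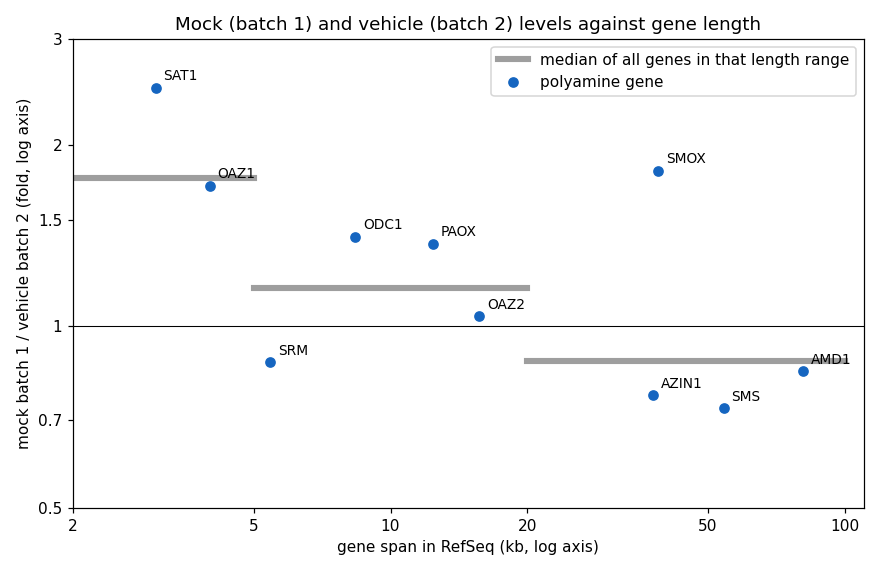
Fold of mock cells in batch 1 over vehicle cells in batch 2 (y axis, log scale) against gene span in kb (x axis, log scale) for the 10 genes. Grey bars give the median of all genes under 5 kb, of 5 to 20 kb and over 20 kb. SAT1, at 2.49-fold, and OAZ1, at 1.71-fold, are in the shortest class, and SMS, at 0.731, in the longest, where SMOX, at 1.81-fold, goes against the median. SRM, at 0.872 in the middle class, also goes against its median.

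Other genes of polyamine metabolism were counted whole, as 28 genes for arginine and ornithine supply, the methionine cycle and methylthioadenosine salvage, hypusine synthesis, transport and further polyamine enzymes. All 28 were tested. MRI1, the isomerase of methylthioribose 1-phosphate in the pathway that recovers methionine from the methylthioadenosine left by SRM and SMS, rose after IR in each comparison. It went from 15.9 and 18.0 CPM to 38.0 and 42.0 CPM in batch 1 (log2 1.24, SE 0.127, adjusted p = 8.436e-05), from 25.5 and 27.2 to 47.4 and 49.1 CPM with vehicle in batch 2 (log2 0.87, SE 0.107, adjusted p = 0.0006085) and from 24.3 and 28.7 to 43.0 and 45.1 CPM under enzalutamide (log2 0.72, adjusted p = 0.003804). ARG2, a mitochondrial arginase that makes ornithine, rose over both batches (log2 0.51, adjusted p = 0.0002683), from 49.2 and 54.5 to 78.0 and 86.8 CPM in batch 1. ARG2 did not pass within batch 2, at log2 0.39 with vehicle (adjusted p = 0.1113) and 0.41 under enzalutamide (adjusted p = 0.1091). AHCY, which clears S-adenosylhomocysteine, rose over both batches (log2 0.26, SE 0.0718, adjusted p = 0.04391) and passed in no single IR comparison, with adjusted p-values of 0.6021 in batch 1, 0.07493 with vehicle and 0.4827 under enzalutamide. IR over both batches thus called 3 of the 28, all higher, beside 4.05% of all genes, with a median log2 change of -0.0182 for the list. None of the 28 was called for enzalutamide.

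Neighbouring genes overlap some of the 10, and whether counting used strand is not given in the sources used here. CDK19 covers 1.53% of AMD1 on the genome and had an enzalutamide change of -0.20 (SE 0.0632, adjusted p = 0.6848) and an IR change of -0.30 (adjusted p = 0.02555), beside -0.27 and -0.20 for AMD1. An uncharacterised lncRNA covers 35.9% of SMOX, and reads of the pair cannot be told apart without strand. SAT1-DT, a divergent transcript, starts 187 bases from SAT1.

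Across the 12 samples, centred within batch, ODC1 was most like MKRN9P (Pearson r = 0.978), ENSG00000247011 (0.953) and ENSG00000279088 (0.942) among 18675 genes. AMD1 was most like CAB39L (0.952), C1orf116 (0.948) and LACTB2 (0.948), and SAT1 most like TNPO1-DT (0.956), FZD5 (0.955) and ENSG00000286043 (0.944). Among the 45 pairs of the 10 genes, r was positive in 28, with a median of 0.18. The highest was 0.819 for SAT1 with OAZ1 and the lowest -0.796 for AMD1 with OAZ2. With the reference gene MYC, r ran over the 10 genes from -0.967 (SMOX) to 0.805 (AMD1), and ODC1 had 0.598. With KLK3 it ran from -0.757 (SMOX) to 0.892 (AMD1), and ODC1 had 0.791. The range was -0.603 (OAZ2) to 0.859 (AMD1) with TMPRSS2. It was -0.575 (AMD1) to 0.766 (SMOX) with CDKN1A and -0.522 (AMD1) to 0.681 (SMOX) with MDM2. These correlations are descriptions over 12 samples that share treatments, batches and scaling factors.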

How the data were processed

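Raw counts per gene were deposited by the authors in 1 table per batch; the unit follows from the values, all whole, with unequal library totals. Per the submitters' processing notes, reads were handled with cutadapt 1.8.1, Bowtie2 2.4.4 and SAMtools 1.9 on hg38. The counting tool, the annotation and the use of strand are not given in the sources used here. Of 60605 Ensembl identifiers, 60463 matched a table of gene names; spans and promoters come from RefSeq on GRCh38.p14.

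The t1 and t2 libraries of each batch 1 replicate were summed, giving 12 samples. Counts were filtered with filterByExpr, scaled by TMM and tested with edgeR 4.0.16 (R 4.3.3, limma 3.58.1) by glmQLFit and glmQLFTest, two-sided, with Benjamini-Hochberg adjustment over all genes and a threshold of 0.05; DESeq2 1.42.0 was an alternative. In batch 2 the 4 groups shared 1 fit. SE and 95% intervals come from the F statistic. CPM values are TMM-scaled. The steps were tested on simulated data. Likeness used log2 CPM with a pseudocount of 0.5 and genes with a mean of at least 50 counts.

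All 10 polyamine genes are named whatever their values, with 5 reference genes (CDKN1A, MDM2, TMPRSS2, KLK3, MYC) and those of the 28 further genes that passed. The genes and lists were chosen with earlier results of these data known. Nothing says that replicates came from separate cultures, so p-values measure the spread between these samples, which may be technical. Replicates of a group differed by more than sampling noise (chi-square per degree of freedom 3.88 to 7.56).

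Replicate numbers are shared between groups in the labels. Replicate differences correlated across genes at 0.22 between the groups of batch 1. For the 6 pairs of groups in batch 2 the correlation was 0.134 to 0.301, so the numbers were taken to pair samples. The main fits did not use this pairing, and fits with the replicate block are given where they change a call. Other alternatives were RLE factors, total counts, no filter, t1 or t2 libraries alone, and leaving out each replicate. Intervals cover the spread between samples.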

Additional observations from a re-analysis of the deposited data

Results flagged for a closer look

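For 5 genes the log2 difference of irradiated from mock cells was not alike in the t2 and the t1 libraries of batch 1 by a test of the difference itself (edgeR's quasi-likelihood test with Benjamini-Hochberg adjustment, 8 libraries, 2 in each of 4 groups). As t2 minus t1, the difference was -1.54 for SAT1 (SE 0.212, adjusted p = 8.907e-05), -1.62 for OAZ1 (SE 0.234, adjusted p = 0.0001215), -1.01 for SRM (SE 0.196, adjusted p = 0.0008886) and -1.07 for PAOX (SE 0.282, adjusted p = 0.006814). SMS had the opposite sign, 0.87 (SE 0.162, adjusted p = 0.0006992). The labels do not say that t1 and t2 match between mock and irradiated cells, and if they do not, these values are differences between t1 and t2 libraries and not between IR responses. The test was chosen after the SAT1 values were seen and called 43.7% of all genes. Its fit had no term for the replicate, so the t1 and t2 libraries of a replicate were taken as independent. SMOX, at -0.52 (adjusted p = 0.0737), passed only with scaling by total counts (adjusted p = 0.0213).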

How the results depend on the processing

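Of 330 refits of single polyamine genes, 300 kept their direction and their side of the threshold, 24 changed sign and 6 passed the threshold that the reported value had missed. With the replicate block the numbers of all genes called were 2332 for IR in batch 1, 1315 for IR with vehicle, 951 for IR under enzalutamide, 55 for enzalutamide without IR and 55 with IR, 272 averaged, 1 for the interaction, 1954 for IR over both batches and 96 for the difference between batches. One polyamine gene passed with the block in each of 3 comparisons (1 for IR in batch 1, 1 for enzalutamide averaged, 1 for IR over both batches), and the block changed no other call among them. Without the filter the counts were 1157 for IR in batch 1, 624 and 556 for IR with vehicle and under enzalutamide, 74, 64 and 230 for enzalutamide without IR, with IR and averaged (1 polyamine gene in the last), 32 for the interaction and 119 for the difference between batches. DESeq2 gave 13, 7 and 58 for enzalutamide without IR, with IR and averaged.

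With only the t1 libraries in batch 1, IR called 3995 of 23134 genes there (3 of the 10 polyamine genes) and the difference between batches 452 of 27263. With only t2 these were 9800 of 21930 (5 of the 10 polyamine genes) and 5646 of 27773 (3 of the 10). IR over both batches then called 657 of 27773 genes. Log2 IR changes over both batches that changed sign were SRM -0.0516, SMS 0.19 and PAOX -0.14 with t2 only, and SAT1 0.093 and OAZ1 0.31 with t1 only; SAT1 in batch 1 was 0.46 with t1 only. With t1 only, the median of the 10 genes was 0.242 for IR in batch 1, 0.094 over both batches and 0.0602 for the difference between batches. SMS also changed sign with RLE factors (0.00246), no filter (0.0179) and DESeq2 (0.00381), and AZIN1 with no filter (0.0018).

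Leaving out each replicate in turn gave 587 to 1509 genes for IR in batch 1 (0 to 1 polyamine genes; the highest without mock replicate 2), 161 to 511 for IR with vehicle (lowest without irradiated vehicle replicate 4, highest without enzalutamide replicate 4) and 139 to 434 for IR under enzalutamide (lowest without irradiated enzalutamide replicate 4, highest without enzalutamide replicate 4). It gave 2 to 10, 1 to 6 and 7 to 36 for enzalutamide without IR, with IR and averaged, each highest without enzalutamide replicate 3 (with IR also without replicate 4), and 0 to 4 for the interaction (highest without enzalutamide replicate 4). The averaged drug change ran from -0.259 to 0.0375 for ODC1 and from -0.187 to 0.0472 for SAT1, positive without enzalutamide replicate 4, and from -0.0683 to 0.0659 for PAOX. Over both batches the IR change ran from -0.0571 to 0.0137 for SMS, from -0.076 to 0.0304 for AZIN1 and from -0.122 to 0.0862 for OAZ1. The reasons for these shifts were not tested. With 2 replicates a group, 95% intervals of single genes in 1 setting are wide. Levels per kilobase by exon or transcript length were not run, since the tables used here give no exon length.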
